A study of Mus musculus with 8 samples.

Results

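Myogenin (Myog) and 9 other genes of the skeletal muscle lineage were followed in the utricle, a gravity-sensing organ of the mouse inner ear whose sensory patch holds hair cells and supporting cells. The 10 genes (Myog, Myod1, Myf5, Myf6, Pax7, Des, Myh3, Actc1, Tnnt3 and Chrna1) were matched by name in the authors' table of normalized counts, and their identifiers were then found among the 48823 genes of the count files. Libraries came from 2 genotypes, with 4 from Rest(+/deltaExon4) embryos, which carry 1 allele of Rest without exon 4 and are called mutant here, and 4 from wild-type embryos. Each library pooled RNA of 7 to 9 mice at E15.5, an embryonic day when the utricle is still developing, of strain C57BL/6. The labels of wild-type replicate 4 instead read E15.6 and C57BL/7. The labels give no allele or agent other than the Rest deletion. The sources used here do not state whether the pools were separate litters. The p-values below therefore measure the spread between these pools.

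Myog was selected on its higher level in the mutants in an earlier fit of the same libraries, so its difference between genotypes is described here and supports nothing by itself. The other 9 genes were named beside it as muscle genes by a choice made with those results known, and the question was whether they differ together with Myog.

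Skeletal muscle forms in steps that are well known from the mouse embryo. Pax7 marks muscle progenitors, Myf5 and Myod1 commit cells to the lineage, Myog drives their differentiation into fusing fibres, and Myf6 acts in and around that differentiation. These 4 myogenic factors are basic helix-loop-helix proteins that pair with E proteins and bind the E-box, often beside a site for MEF2 factors. Fibres then make sarcomere proteins and cluster acetylcholine receptors under the nerve ending. The utricle is not a muscle, but small muscles of the middle ear lie close to it.

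The promoters of 3 of the genes are printed with letter matches to the motifs of these factors. These 3 genes were picked because they differed from each other in direction, and binding was not measured. Promoters of 7 of the 10 genes were found in the RefSeq table (GRCm38.p6), each covering 250 bases before and 50 after the RefSeq start. Capitals mark 2 motifs, the E-box (CANNTG, the same on both strands) in runs of 6 letters and a MEF2-type motif (CTANNNNTA, or TANNNNTAG on the other strand) in runs of 9. The Myog window is chr1:134289754-134290053 on the plus strand, the Myh3 window chr11:67078050-67078349 on the plus strand, and the Chrna1 window chr2:73580289-73580588 on the minus strand.
Myog: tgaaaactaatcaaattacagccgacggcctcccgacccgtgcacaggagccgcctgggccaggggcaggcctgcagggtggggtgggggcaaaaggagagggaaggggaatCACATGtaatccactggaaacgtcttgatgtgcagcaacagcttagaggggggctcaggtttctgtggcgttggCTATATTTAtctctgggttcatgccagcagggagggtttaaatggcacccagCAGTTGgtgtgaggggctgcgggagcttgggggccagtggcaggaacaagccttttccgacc
Myh3: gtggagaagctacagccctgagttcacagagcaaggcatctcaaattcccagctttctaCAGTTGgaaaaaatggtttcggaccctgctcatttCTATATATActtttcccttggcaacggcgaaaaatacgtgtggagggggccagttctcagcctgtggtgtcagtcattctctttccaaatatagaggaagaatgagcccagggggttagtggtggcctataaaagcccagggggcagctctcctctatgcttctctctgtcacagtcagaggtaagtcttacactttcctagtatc
Chrna1: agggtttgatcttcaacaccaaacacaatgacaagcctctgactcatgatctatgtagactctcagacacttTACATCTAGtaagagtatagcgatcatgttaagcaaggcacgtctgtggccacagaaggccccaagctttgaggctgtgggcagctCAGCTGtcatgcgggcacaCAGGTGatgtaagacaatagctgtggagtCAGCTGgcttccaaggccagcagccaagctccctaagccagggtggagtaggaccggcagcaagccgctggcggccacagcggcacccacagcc
The Myog window held 2 E-boxes, CACATG starting at -138 and CAGTTG at -12 from the start, and 1 MEF2-type match at -64. The Myh3 window held 1 E-box at -191 and 1 MEF2-type match at -156. The Chrna1 window held 3 E-boxes, of which the 2 at -92 and -44 read CAGCTG, and 1 MEF2-type match at -178. An E-box was found in 72.3% of all 32851 promoters of this length, CAGCTG (counted also as an E-box) in 16.3% and the MEF2-type motif in 21.0%. Of the other members with a window, Des had 2 E-boxes and 2 overlapping MEF2-type matches, Actc1 had 1 E-box, Myf5 had 2 overlapping MEF2-type matches and Pax7 had neither motif. The windows of Actc1 and Pax7 lie wholly inside the gene spans used for the counts, so they do not cover the outer start of those spans. No match in a window says only that these letters are not in it.

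Depth was similar, with 22.4 to 24.6 M read pairs assigned to genes per mutant library and 20.4 to 23.8 M per wild-type library. Read pairs outside genes made up 11.9% to 18.3% in mutant libraries and 18.4% to 22.2% in wild-type libraries, and each mutant library had reads on 23408 to 23989 genes, each wild-type library on 24265 to 24687, so neither measure overlapped between genotypes. Their part in the differences below was not tested. Rest was at 131.66, 124.6, 125.7 and 125.8 CPM in mutant libraries and at 121.6, 115.9, 122.04 and 106.2 CPM in wild-type libraries. CPM are read pairs per 1 M on genes, with library sizes scaled by TMM factors. A count over the whole gene does not show exon 4 and is no check of the genotype. Over all 16990 genes tested, 1.17% were called at a Benjamini-Hochberg adjusted p under 0.05 by edgeR's quasi-likelihood test, 0.147% as higher and 1.02% as lower in mutants.

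The labelled tissue was checked against marker genes. Hair cell markers were present in every library, with 10 of 10 tested and summed levels of 662 to 817 CPM in mutant and 754 to 865 CPM in wild-type libraries. Of the 10, 1 was called lower and 9 did not pass, with 3 log2 changes above 0 and 7 below (-0.99 to 0.65). Without overlap between genotypes, 2 markers were higher and 1 lower, beside 2.98% and 4.89% of all genes tested. An unadjusted p under 0.05 in edgeR's test was found for 6 of the 10, beside 13.4% of all genes tested. The hair cell gene Otof, needed for transmitter release, was the 1 called lower. It was at 84.2 ± 9.82 CPM in mutants and 167 ± 8.80 CPM in wild type (SD, n = 4 each, edgeR adjusted p = 0.000319). The 8 supporting cell markers and the 8 mesenchyme markers were also all tested, and none passed. Log2 changes ran from -0.47 to 0.34 for supporting cell markers and from -0.15 to 0.28 for mesenchyme markers. Each list had 1 marker with an unadjusted p under 0.05 in edgeR's test. In the supporting cell list 1 marker was lower without overlap. Sox9 and Jag1, genes of the sensory epithelium and its supporting cells, had log2 changes of 0.07 and 0.05, and the collagen genes Col1a2 and Col3a1 of -0.03 and 0.04.

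Myog was the only one of the 10 genes that passed the threshold in this fit, and it was a moderately expressed gene in both genotypes. It lies on chromosome 1 at 134289989 to 134292548 (GRCm38, plus strand), and no other annotated gene overlaps it. Its level was 19.7, 25.9, 27.1 and 19.6 CPM in the mutant libraries, from 459, 541, 649 and 479 read pairs. It was 4.85, 7.53, 9.91 and 8.001 CPM in the wild-type libraries, from 114, 163, 245 and 165 read pairs. Every mutant library was well above every wild-type library, and the gap between the groups was wider than the spread within the wild-type group. The mean was 23.1 ± 3.98 CPM in mutants and 7.57 ± 2.09 CPM in wild type (SD, n = 4 each), a ratio of 3.05 and a log2 change of 1.61 ± 0.21 (SE, 95% interval 1.15 to 2.06). The adjusted p of 0.00311 is the value that chose the gene. It was called in 8 of 8 fits that each leave out 1 library, with log2 changes from 1.45 to 1.77, all of which reuse the libraries that chose it.

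**Figure D1:**
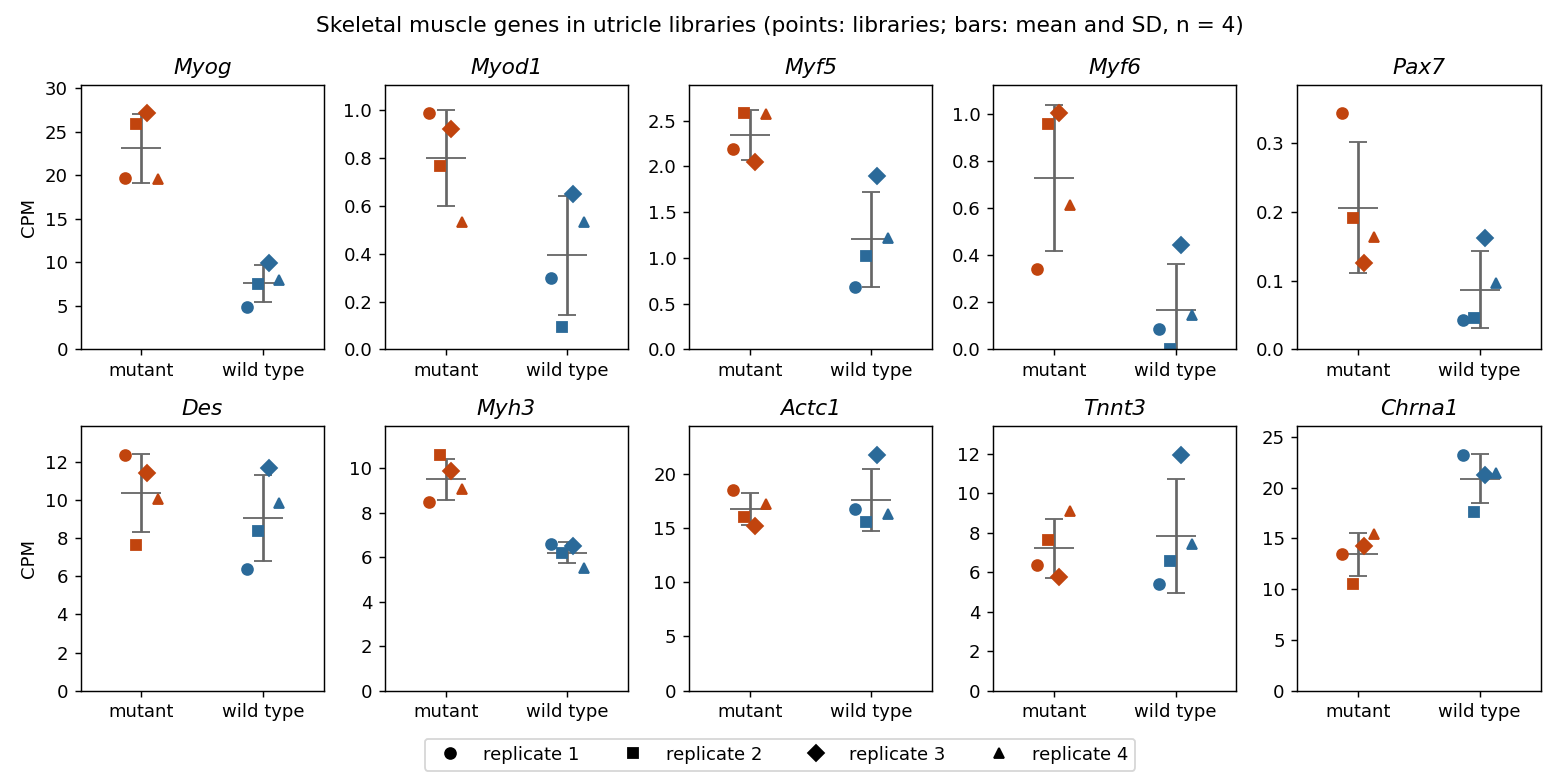
Level of the 10 genes in each library, in CPM on separate vertical axes that start at 0. Points are libraries, with a shape for each replicate number, and bars give the mean and SD (n = 4 per genotype). The mutant points lie above all wild-type points for Myog, Myf5 and Myh3 and below them for Chrna1, and wild-type replicate 3 is the highest wild-type library for 8 of the 10 genes.

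The factors that act before Myog were at much lower levels, and none passed the threshold. Pax7, the progenitor factor, had 8, 4, 3 and 4 read pairs in mutant libraries and 1, 1, 4 and 2 in wild-type libraries. These groups overlap, and the gene was too low to be tested. Without the filter on low counts its log2 change was 1.20 (edgeR adjusted p = 0.606). Myf5, which commits cells to muscle and lies on chromosome 10 at 107482908 to 107486134 (minus strand), was at 2.19, 2.58, 2.05 and 2.58 CPM in mutant libraries and at 0.68, 1.02, 1.90 and 1.21 CPM in wild-type libraries. The mutant libraries lie above the wild-type ones, but replicate 3 of the wild type comes close to the lowest of them. The log2 change was 0.96 ± 0.32 (SE, 95% interval 0.26 to 1.65, edgeR adjusted p = 0.232).

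Myod1, the other commitment factor, had 23, 16, 22 and 13 read pairs in mutant libraries and 7, 2, 16 and 11 in wild-type libraries. The groups overlap at 0.532 CPM in mutant replicate 4, below the 0.647 CPM of wild-type replicate 3. Its log2 change was 1.01 ± 0.49 (SE, 95% interval -0.08 to 2.10, edgeR adjusted p = 0.409). Myf6, which acts late and lies beside Myf5 at 107492853 to 107494737, had 8, 20, 24 and 15 read pairs in mutant libraries and 2, 0, 11 and 3 in wild-type libraries. Mutant replicate 1 falls below wild-type replicate 3, so these groups overlap too. The log2 change of 2.03 ± 0.71 (SE, 95% interval 0.48 to 3.59, edgeR adjusted p = 0.258) became 3.17 without wild-type replicate 3 (edgeR adjusted p = 0.133).

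The intervals of Myod1, Myf5 and Myf6 all include the estimate of Myog, and that of Myod1 also includes 0. The counts of these 3 genes therefore do not separate an increase like that of Myog from a much smaller one. The levels also differ greatly in scale when set per exonic length, the joined length of all annotated exons of a gene. This is at least as long as any single transcript of the gene, so ranks between genes are approximate. Myog was at 51.0 ± 8.39 TPM (a level per exonic length) in mutants and 17.4 ± 5.10 TPM in wild type. Myf5 was at 3.73 ± 0.432 TPM in mutants and 1.99 ± 0.901 TPM in wild type. Myf6 was at 1.91 ± 0.798 TPM in mutants and 0.466 ± 0.545 TPM in wild type, and Myod1 at 1.42 ± 0.363 TPM in mutants and 0.726 ± 0.468 TPM in wild type (SD, n = 4 each). In the order of these levels Myog stood far above the others in both genotypes. Myf6 and Myod1 did not differ from each other beyond their spread.

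Des, Actc1 and Tnnt3, which encode structural proteins, were not called. Their intervals lay below that of Myog, which is a description, since Myog was chosen for its difference. Des, which encodes the muscle intermediate filament desmin, was at 12.4, 7.65, 11.4 and 10.1 CPM in mutant libraries and at 6.38, 8.36, 11.7 and 9.84 CPM in wild-type libraries. The groups overlap over most of their range. The log2 change was 0.19 ± 0.21 (SE, 95% interval -0.26 to 0.65, edgeR adjusted p = 0.718). Actc1, the actin of heart and embryonic skeletal muscle, was at 18.6, 16.1, 15.2 and 17.3 CPM in mutant libraries and at 16.8, 15.57, 21.8 and 16.3 CPM in wild-type libraries. Replicate 3 of the wild type stands above all other libraries. This gave a log2 change of -0.07 ± 0.13 (SE, 95% interval -0.36 to 0.22, edgeR adjusted p = 0.855). Actin genes are near copies of each other and reads with several positions are kept apart from gene counts, so the level of Actc1 is uncertain.

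Tnnt3, the troponin T of fast fibres, was at 6.35, 7.65, 5.76 and 9.12 CPM in mutant libraries and at 5.40, 6.56, 12.0 and 7.42 CPM in wild-type libraries. Wild-type replicate 3 is again the highest library, and the others intermingle. They gave a log2 change of -0.12 ± 0.25 (SE, 95% interval -0.67 to 0.43, edgeR adjusted p = 0.874). Without wild-type replicate 3, the log2 changes of Actc1 and Tnnt3 turned to 0.05 and 0.16 (edgeR adjusted p = 0.895 and 0.793). The intervals of Des, Actc1 and Tnnt3 end at 0.65 or below and do not reach the 1.15 at the lower end of that of Myog. The interval of Myog comes from the libraries that chose it, so this comparison carries no test. Actc1 was at 34.4 ± 3.33 TPM in mutants and 37.3 ± 7.03 TPM in wild type, so in wild type it was above Myog per exonic length. Tnnt3 was at 15.1 ± 3.13 TPM in mutants and 17.0 ± 6.72 TPM in wild type, and Des at 9.16 ± 1.86 TPM in mutants and 8.28 ± 2.21 TPM in wild type (SD, n = 4 each). Des and Tnnt3 overlap annotated genes on the other strand, Gm15179 and Prr33, neither of which had more than 7 read pairs in any library.

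Myh3 and Chrna1 came close to the threshold, in opposite directions. Myh3, the embryonic myosin heavy chain, lies on chromosome 11 at 67078300 to 67102291 and was at 8.49, 10.6, 9.85 and 9.08 CPM in mutant libraries and at 6.59, 6.19, 6.51 and 5.53 CPM in wild-type libraries. The groups do not overlap, and wild-type replicate 3 does not stand out. Its log2 change was 0.61 ± 0.14 (SE, 95% interval 0.31 to 0.92, edgeR adjusted p = 0.0655). Chrna1, the subunit of the muscle acetylcholine receptor that binds the transmitter, lies on chromosome 2 at 73563215 to 73580338 and was at 13.5, 10.5, 14.2 and 15.46 CPM in mutant libraries and at 23.3, 17.6, 21.3 and 21.4 CPM in wild-type libraries. All mutant libraries are below all wild-type libraries. Its log2 change was -0.64 ± 0.14 (SE, 95% interval -0.94 to -0.33, edgeR adjusted p = 0.0614). DESeq2 called both genes, with adjusted p of 0.00339 for Myh3 and 0.00368 for Chrna1, in a fit that called 2.73% of its genes.

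Of the 9 members tested, 3 were higher without overlap (Myog, Myf5 and Myh3) and 1 was lower without overlap (Chrna1). Over all genes tested, 2.98% were higher without overlap and 4.89% lower. A log2 change above 0 was found for 6 of the 9, and for 49.5% of all genes tested. Besides Myog, 4 members (Myf5, Myf6, Myh3 and Chrna1) had an unadjusted p under 0.05 in edgeR's test, as did 13.4% of all genes tested. Members were chosen with results of these libraries known, so these shares are descriptions.

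**Figure D2:**
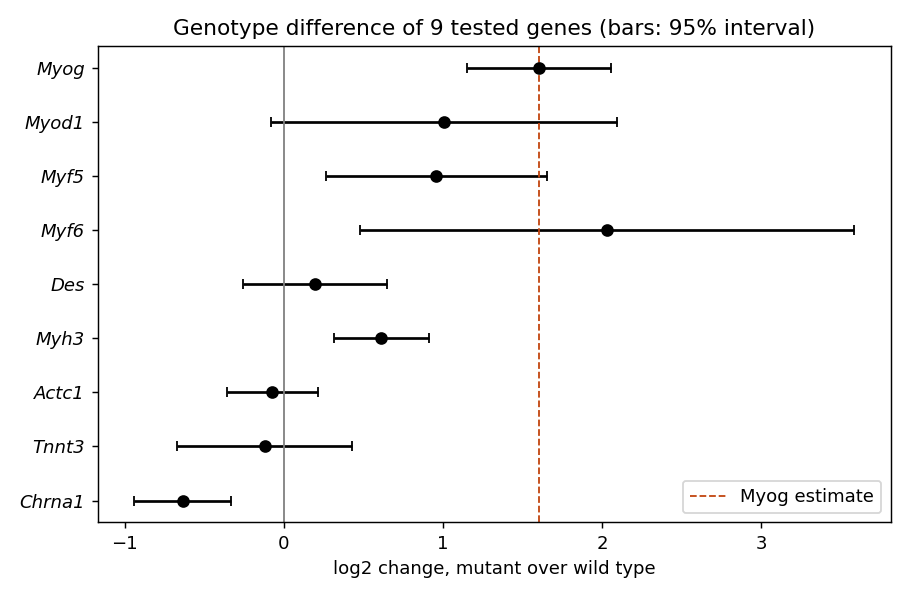
Log2 change of the 9 tested genes, mutant over wild type, as the edgeR estimate with its 95% interval. The dashed line marks the estimate of Myog, 1.61, and the solid line marks 0. The intervals of Myod1, Myf5 and Myf6 reach the dashed line, while those of Des, Myh3, Actc1, Tnnt3 and Chrna1 end below it.

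For most of the 10 genes the same wild-type library was highest. Wild-type replicate 3 was the highest of the 4 wild-type libraries for 8 of the 10 members, and it was so for 42.9% of the 77 tested genes of the skeletal muscle lists described below, against 25.0% of all genes tested. The share was 46.2% for the 13 tested smooth muscle and pericyte genes and 27.8% for the 18 of the neuromuscular junction list. In the mutant group no library held this place, since replicate 1 was highest for 4 members and the others for 2 each. The summed level of 8 skeletal muscle markers (Myod1, Myf5, Pax7, Des, Myh3, Acta1, Tnnt3 and Ckm) was 68.0, 68.3, 57.7 and 71.1 CPM in mutant libraries and 43.5, 53.9, 87.5 and 58.9 CPM in wild-type libraries. The wild-type libraries thus spanned both the lowest and the highest sum. None of the 8 markers was at 0 in any library. In pooled tissue, more cells of a type and more RNA per cell cannot be told apart.

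Myog did not follow this sum across genotypes. Acta1 was the largest part of the sum, at means of 31.4 CPM in mutants and 31.0 CPM in wild type. As an actin gene it shares the uncertain level of Actc1. Myod1, Myf5 and Pax7 added little, at mutant means of 0.80, 2.35 and 0.21 CPM and wild-type means of 0.39, 1.20 and 0.087 CPM. Per 100 CPM of the 8 markers, Myog was at 28.9, 37.9, 47.0 and 27.6 CPM in mutant libraries and at 11.1, 13.97, 11.3 and 13.6 CPM in wild-type libraries. The 4 wild-type ratios lie close together, although their marker sums differ widely, and every mutant ratio is above them. The ratio of Myog to Actc1 was 1.06, 1.61, 1.78 and 1.14 in mutant libraries and 0.289, 0.484, 0.455 and 0.491 in wild-type libraries, again without overlap. Both ratios contain the level that chose Myog and carry no test.

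**Figure D3:**
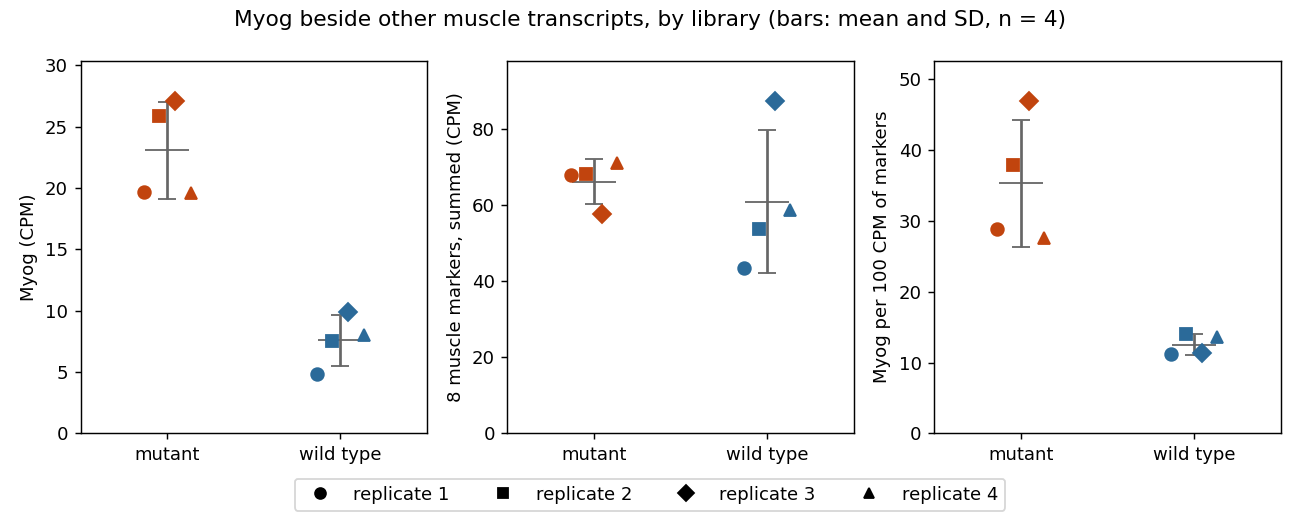
Myog in CPM, the summed CPM of 8 skeletal muscle markers, and Myog per 100 CPM of these markers, by library, with mean and SD (n = 4 per genotype). The marker sums of the genotypes overlap, while Myog and its ratio to the markers, 27.6 to 47.0 in mutants and 11.1 to 13.97 in wild type, do not.

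A wider set of 105 skeletal muscle genes in 4 lists, which contains the 10 members, was examined in the same fit. Of these, 77 were tested, 1 rose (Myog), 2 fell and 74 did not pass, with a median log2 change of 0.05 against -0.0027 over all genes tested. The 1 call higher out of 77 is Myog itself, and the 2 calls lower stand beside the 1.02% of all genes called lower. Groups did not overlap for 8 of the 77, of which Myog, Myf5, Myh3 and Klhl41 were higher and Chrna1, Smpx, Pgam2 and Cdh15 lower. These 4 and 4 of 77 stand beside 2.98% of all genes higher and 4.89% lower without overlap. Without Myog, which was chosen for its difference, 3 of 76 were higher. The lists were drawn up with earlier results of these libraries known.

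Among 20 myogenic regulators, 14 were tested, Myog rose and 13 did not pass, with a median log2 change of 0.18 and 10 of 14 above 0. Without overlap, 3 of the 14 were higher and 1 lower, beside 2.98% and 4.89% of all genes tested. An unadjusted p under 0.05 in edgeR's test was found for 5 of the 14, Myog among them, beside 13.4% of all genes tested. Mef2c, a factor that acts with the myogenic proteins and is also used in other tissues, was at 28.4 ± 2.99 CPM in mutants and at 28.7 ± 3.46 CPM in wild type (SD, n = 4 each). It had a log2 change of -0.02 (edgeR adjusted p = 0.966). A pair of genes was picked out after their values were seen. Klhl41, which stabilises the sarcomere, was at 3.39, 5.45, 4.80 and 3.89 CPM in mutant libraries and at 2.68, 2.22, 2.83 and 1.99 CPM in wild-type libraries (edgeR adjusted p = 0.122, DESeq2 adjusted p = 0.0228). Cdh15, the cadherin of myoblasts, was at 3.69, 3.63, 3.88 and 3.31 CPM in mutant libraries and at 5.06, 4.94, 5.18 and 4.90 CPM in wild-type libraries (edgeR adjusted p = 0.238). Neither overlapped between genotypes, and they lie on opposite sides, Klhl41 above and Cdh15 below wild type.

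Among 40 sarcomere genes, 32 were tested, Smpx fell, none rose and 31 did not pass, with a median log2 change of 0.06. Smpx encodes a small protein of striated muscle that is also known from inherited deafness in humans. It was at 56.0, 52.8, 48.8 and 50.5 CPM in mutant libraries and at 87.5, 82.9, 76.1 and 88.6 CPM in wild-type libraries, with no overlap. The log2 change was -0.69 ± 0.08 (SE, edgeR adjusted p = 0.00144). Acta1, the skeletal actin, was at 33.4, 32.8, 24.8 and 34.7 CPM in mutant libraries and at 20.5, 26.9, 47.4 and 29.2 CPM in wild-type libraries. Its wild-type range encloses all mutant values. Smpx was above Acta1 in every library, and which cells the Smpx reads came from was not tested.

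Among 20 genes of muscle metabolism, 13 were tested, Pgam2 fell, none rose and 12 did not pass, with a median log2 change of -0.03. Pgam2, the muscle form of a glycolytic mutase, was at 27.6, 27.3, 30.3 and 25.1 CPM in mutant libraries and at 55.0, 46.0, 42.2 and 35.6 CPM in wild-type libraries. The groups do not overlap. The log2 change was -0.70 ± 0.13 (SE, edgeR adjusted p = 0.0237). Leaving out a library ended the call in 7 of 8 cases (edgeR adjusted p from 0.0518 to 0.0822), the exception being wild-type replicate 4 (0.0116). With a replicate block the adjusted p was 0.0597. Ckm, the muscle creatine kinase, had a log2 change of -0.23 (edgeR adjusted p = 0.757).

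**Figure D4:**
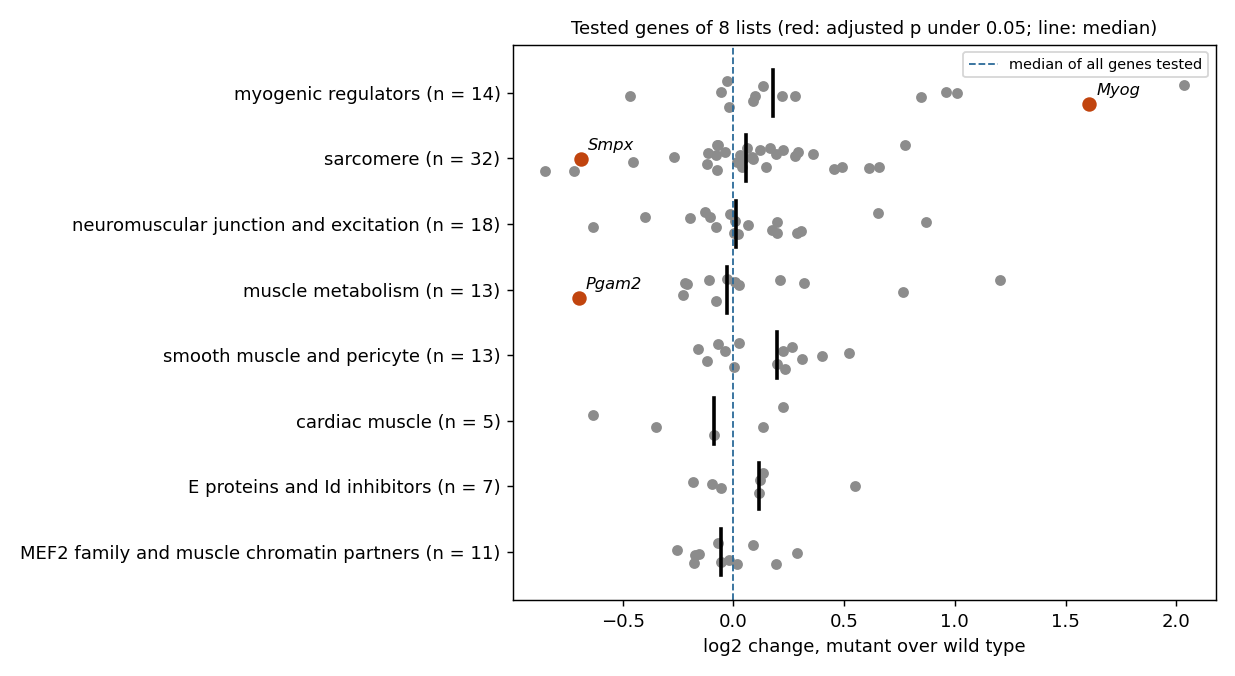
Log2 change of each tested gene, mutant over wild type, in 4 skeletal muscle lists and 4 lists of related genes. Red points passed an adjusted p of 0.05, black lines are list medians and the dashed line is the median of all genes tested. The called genes are Myog above 0 and Smpx and Pgam2 below 0.

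Genes of the receptor and the junction other than Chrna1 gave no call either. Of 25 genes of the neuromuscular junction and of excitation, 18 were tested and none passed, with a median log2 change of 0.01. The muscle acetylcholine receptor is built from the alpha, beta and delta subunits with a gamma subunit in the embryo or an epsilon subunit in the adult. Per exonic length, the gamma gene Chrng was at 49.8 ± 6.24 TPM in mutants and 58.9 ± 4.77 TPM in wild type. The beta gene Chrnb1 was at 12.3 ± 1.69 TPM in mutants and 12.1 ± 2.46 TPM in wild type, and Chrna1 at 10.1 ± 1.61 TPM in mutants and 16.3 ± 1.96 TPM in wild type. The delta gene Chrnd was lowest of these, at 1.13 ± 0.417 TPM in mutants and 1.15 ± 0.566 TPM in wild type (SD, n = 4 each). Chrng stood above the other subunits in both genotypes, and which cells these reads came from was not tested. The edgeR adjusted p for the genotype difference was 0.397 for Chrng, 0.900 for Chrnb1 and 0.989 for Chrnd. Lrp4, the receptor of agrin at the junction, is also the most abundant gene of this list and had a log2 change of 0.20 (edgeR adjusted p = 0.595).

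The epsilon gene Chrne, picked out after its values were seen, was under the filter on low counts. It had 11, 10, 5 and 9 read pairs in mutant libraries and 2, 0, 0 and 0 in wild-type libraries. Every mutant library had more read pairs than every wild-type library, at levels of at most 0.478 CPM. Without the filter its edgeR adjusted p was 0.0994, and DESeq2 gave 0.054.

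Genes that work with the myogenic factors and markers of the other muscle types did not pass. Of 7 E proteins and Id inhibitors, the partners of helix-loop-helix factors and the proteins that sequester them, all were tested and none passed (median log2 change 0.12). Tcf4 and Id3, the most abundant, had log2 changes of -0.05 and 0.12. Of 12 MEF2 family genes and chromatin partners, 11 were tested and none passed (median -0.06). The histone deacetylase gene Hdac4 and the transcriptional coactivator gene Eya1 had log2 changes of -0.26 and -0.18 (edgeR adjusted p = 0.611 and 0.350). Hdac4 overlapped between genotypes. Eya1 did not, at 103.1 to 121.6 CPM in mutant and 122.9 to 133.8 CPM in wild-type libraries. It was the 1 gene of the 11 that was lower without overlap, beside 4.89% of all genes tested.

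Of 14 smooth muscle and pericyte genes, 13 were tested and none passed, with a median log2 change of 0.20, and their summed level was 279 to 325 CPM in mutant and 264 to 277 CPM in wild-type libraries. These sums do not overlap, and the part of such cells in the values above was not tested. The pericyte genes Rgs5 and Pdgfrb had log2 changes of 0.22 and 0.0018 (edgeR adjusted p = 0.272 and 0.997). Of 12 cardiac genes, 5 were tested and none passed (median -0.09). Tnni3 and Myl7, the most abundant, were at 2.32 and 0.936 CPM in mutants and at 2.47 and 1.20 CPM in wild type. The summed level of the 12 was 3.34 to 6.26 CPM in mutant and 4.93 to 8.04 CPM in wild-type libraries.

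None of the tested neighbours of Myog within 1 Mb on chromosome 1 was called higher. Of 31 other genes tested in that window, 1 was called lower, and 12 of 31 had a positive log2 change (median -0.15), beside 1.02% and 49.5% of all genes. An unadjusted p under 0.05 was found for 11 of 31, beside 13.4% of all genes. On one side the nearest tested genes were Adora1, an adenosine receptor gene, and Chil1, with log2 changes of -0.93 and -0.53. On the other side they were Ppfia4, whose product organises presynaptic sites, and Tmem183a, with -0.76 and -0.20 (edgeR adjusted p from 0.0517 to 0.431 for these 4 genes). The called gene within 1 Mb was Syt2, a synaptic vesicle calcium sensor, at 1.29, 0.908, 0.418 and 0.573 CPM in mutant libraries and at 4.51, 4.25, 5.18 and 3.78 CPM in wild-type libraries.

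Within 5 Mb, 113 other genes were tested, 2 were called higher and 3 lower, with a median log2 change of -0.05, beside 0.147% called higher and 1.02% called lower among all genes. The higher genes were Shisa4 (0.59 ± 0.10, SE, edgeR adjusted p = 0.0167) and the cell polarity gene Crb1 (3.17 ± 0.60, SE, edgeR adjusted p = 0.0291). Crb1 was a low gene, at 1.22 ± 0.559 CPM in mutants and 0.129 ± 0.0866 CPM in wild type (SD, n = 4 each). The lower genes besides Syt2 were the lipid kinase gene Pik3c2b (-0.80 ± 0.09, SE, edgeR adjusted p = 0.00163) and the kinase gene Dstyk (-0.88 ± 0.16, SE, edgeR adjusted p = 0.0227). Within 1 Mb of each of the other 9 members, no gene was called higher, and 1 was called lower in each of the windows around Myf5, Myf6 and Actc1. The windows around Myf5 and Myf6, which lie side by side, nearly coincide and are not separate. Of all genes, 0.147% were called higher, so an empty window is read as nothing particular to these genes.

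**Figure D5:**
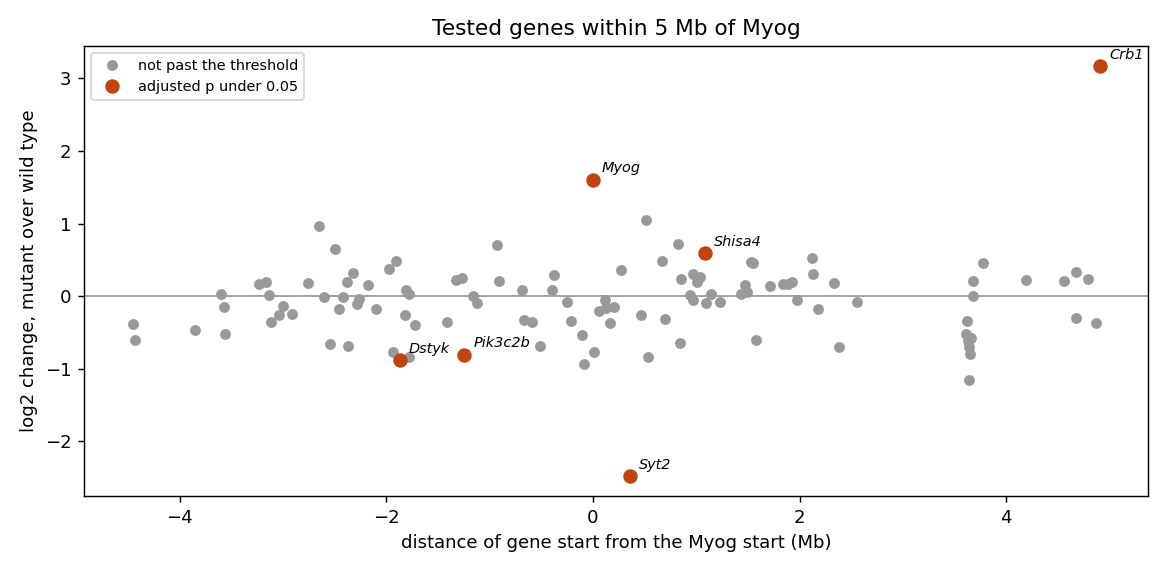
Log2 change, mutant over wild type, of tested genes within 5 Mb of the Myog start, against their distance in Mb. Red points passed an adjusted p of 0.05. Shisa4 and Crb1 lie above 0 with Myog, while Syt2, Pik3c2b and Dstyk lie below 0.

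The genes whose pattern over the 8 libraries was most like that of Myog are given as a description, since the measure uses the levels that chose Myog. Likeness was the root mean square distance between log2 levels scaled to mean 0 and SD 1, over 12599 protein-coding genes, and it ignores the size of a difference. The closest were Syngr1 (distance 0.220), Agpat1 (0.247), Plekhj1 (0.282), Epcam (0.287) and Pold2 (0.288). Syngr1 encodes a synaptic vesicle protein, Agpat1 an acyltransferase, Epcam an epithelial adhesion protein and Pold2 a DNA polymerase subunit. Their log2 changes, from 0.20 to 0.44, were far smaller than that of Myog. Among the members abundant enough for this measure, Myh3 ranked 55, Des 3012, Tnnt3 6177, Actc1 7874 and Chrna1 12424.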

How the data were processed

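The submitters' processing notes list STAR 2.5.2a, DESeq2 without a version, and the build GRCm38.p4. Per the labels' protocols, cDNA was primed with oligo-dT, amplified and tagmented. The authors deposited, for each library, whole-number counts of read pairs per gene, of which the unstranded column was used. The columns by strand summed to within 0.996 to 1.002 of each other, so strand does not separate a gene from one that overlaps it. Rows without a gene (25.2% to 33.9% of read pairs) were left out of all library sizes and fits. The authors' table of normalized counts is a signal of counts divided by a size factor, for 7 libraries without wild-type replicate 4. Of its values 100% became whole reads (tolerance 0.001) equal to the deposited counts, and the count test on them called 129 genes.

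The quasi-likelihood test of edgeR 4.0.16 (R 4.3.3, TMM factors) compared the genotypes after filterByExpr (minimum count 10, minimum total 15) left 16990 genes, at a Benjamini-Hochberg adjusted p of 0.05. SE is the log2 change over the square root of F, and 95% intervals use the test's degrees of freedom. TPM were computed from CPM and exonic length in GENCODE M21, which matched 48349 of 48823 identifiers. Likeness used log2(CPM + 0.5) for genes with a mean of at least 2 CPM. The test was checked on simulated data. DESeq2 1.42.0, other factors, filters and count columns, a replicate block and leaving out each library were alternatives. The members and lists were chosen with earlier results of these data known. Genes named were all members, called genes of each list (otherwise the 2 most abundant), the nearest and the called neighbours of Myog, the 5 most like it, and Rest. Acta1, Ckm, Chrnb1, Chrnd, Chrne, Klhl41, Cdh15 and Mef2c were named outside this rule.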

Additional observations from a re-analysis of the deposited data

Results flagged for a closer look

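Among 104 groups of 4 libraries checked, 7 held 1 library that stood apart from the other 3 by Dixon's criterion at the 95% level. Chance flags about 1 in 20 groups, and none of the 10 members was among them, while Chrne belongs to the wider muscle lists. For Rest, mutant replicate 1 was at 131.66 CPM, above 124.6 to 125.8 CPM in the other mutants. For Rgs5, mutant replicate 3 was at 145.45 CPM, below 171 to 175 CPM. For Tmem183a, mutant replicate 1 was at 64.4 CPM, above 55.7 to 56.5 CPM. For Jag1, wild-type replicate 1 was at 1100.5 CPM, above 803 to 849 CPM. For Myl7, wild-type replicate 1 was at 2.68 CPM, above 0.647 to 0.728 CPM. For Chrne, wild-type replicate 1 was at 0.085 CPM (2 read pairs), against 0 in the other wild-type libraries. For Crb1, wild-type replicate 4 was at 0 CPM, against 0.162 to 0.185 CPM.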

How the results depend on the processing

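Myog kept its direction and was called in 8 of 8 fits that leave out a library and in 9 of 9 other alternatives. All of these fits reuse libraries that chose Myog, so its calls in them support nothing by themselves. The fit on recovered reads nearly repeats the fit without wild-type replicate 4 (Myog log2 change 1.63 in both). Over the 8 and 9 fits, Myh3 stayed above 0 and Chrna1 below 0. Each passed with DESeq2 alone (log2 changes 0.62 and -0.62), so 2 members other than Myog were called there, against 0 with edgeR. Actc1 and Tnnt3 reversed without wild-type replicate 3, to 0.0492 and 0.162, and in no other fit (leaving out a library gave -0.122 to 0.0492 for Actc1 and -0.251 to 0.162 for Tnnt3). Calls of skeletal muscle genes were 1 higher and 2 lower, and became 3 higher (Myog, Klhl41 and Myh3) and 3 lower (Chrna1, Pgam2 and Smpx) with DESeq2, 3 lower with the sum of the strand columns (adding Art1 at -0.55) and 1 lower with the replicate block, which lost Pgam2. Over all genes, DESeq2 called 155 higher and 390 lower, the replicate block 16 and 80, and the recovered reads of 7 libraries, an alternative chosen after seeing the data, 112 lower, against 25 and 173. Leaving out 1 library gave 12 to 28 higher and 105 to 140 lower genes, 1 to 1 higher and 1 to 2 lower skeletal muscle genes, and 0 to 0 other members. Same-numbered libraries of the 2 genotypes did not deviate together (correlations -0.098 to 0.032), so the block is no pairing. No scaling moved the median of all genes by over 0.1. Depth limits Pax7, Myod1, Myf6 and Chrne, which had at most 24 read pairs in any library.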
